A study of Mus musculus with 16 samples.

Results

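Collagen chain genes encode the α chains that wind around each other to form the collagens of the extracellular matrix. They were taken here as every gene whose symbol is Col, a number, the letter a and a number, and 44 genes met this rule in both deposited tables, among 24722 genes in the table of isolated glomeruli and 34264 in that of renal cortex. The RNA sequencing study compared wild-type (WT) mice aged 24 weeks that were controls with WT mice made diabetic by HFD/STZ (the labels give only the abbreviation, in this field a high-fat diet with streptozotocin, a toxin of insulin-producing cells). Its title concerns the histone methyltransferase NSD2 in podocytes, the filter cells of the glomerulus, but every mouse used here is labelled WT. There were 4 libraries each of control glomeruli, diabetic glomeruli, control cortex and diabetic cortex, all labelled batch 1. No protein or histology was measured, so every value below is an RNA level.

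Sequencing depth was 36339294 to 41876031 counts per glomerular library and 57473100 to 72352656 per cortex library. Control glomerular libraries 3 and 4 were far closer to each other than any other control pair (chi-square per gene of 2.76 against 45.7 to 84.4), as were diabetic glomerular libraries 1 and 4 (6.69 against 66.2 to 97.9). Each such pair was summed and counted as 1 sample, called 3+4 and 1+4, which left 3 control and 3 diabetic glomerular samples. The labels number the libraries without naming separate mice. If several came from 1 mouse, p-values reflect technical spread only. The summed level of 12 podocyte markers was 4886 to 6122 CPM (counts scaled to a library of 1000000) in control glomeruli and 396 to 431 CPM in control cortex, in the direction the tissue labels give. The gap was wider for 8 smooth muscle and renin cell markers, at 17639.8 to 20102 CPM in control glomeruli and 164 to 249 CPM in control cortex. Of these, Ren1 and Akr1b7 were higher in cortex. The part of such cells in the collagen levels of control glomeruli was not tested. Diabetic glomerular samples differed among themselves in tubule markers: 10 proximal tubule genes summed to 1050.4 CPM in sample 1+4, 505 in sample 3 and 101 in sample 2, against 72.5 to 94.0 in the controls. Glomerular counts are therefore also given with diabetic library 2 alone against the 3 control samples, with its spread assumed to be that of the controls. That library had the least tubule signal of the diabetic samples but was not free of it. Its distal nephron and collecting duct markers summed to 181 CPM, against 57.0 to 76.4 CPM in the controls. Values are listed below in the order 1, 2 and 3+4 for control glomeruli, 1+4, 2 and 3 for diabetic glomeruli, and 1 to 4 for cortex.

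Collagens differ in how their chains assemble. Fibrillar collagens (types I, II, III, V, XI, XXIV and XXVII) form the banded fibrils of interstitial tissue, and their build-up is a mark of fibrosis in the kidney. Type IV collagen forms the sheet-like network of basement membranes. In the developing glomerulus this network is made of the α1 and α2 chains, and in the mature glomerular basement membrane, the main sheet of the filtration barrier, it is largely replaced by the α3, α4 and α5 chains made by podocytes. Loss of any of those chains causes Alport syndrome. The multiplexins (types XV and XVIII) sit in basement membranes, type VII forms anchoring fibrils, type VI forms beaded microfibrils, types VIII and X form short-chain networks, the FACIT collagens (such as types XII, XIV and XVI) lie on fibril surfaces, and types XIII, XVII, XXIII and XXV span the cell membrane.

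In control glomeruli the chains of types IV and I led. By FPKM, a level per length of gene that allows chains to be compared within a tissue, Col1a2 stood at 856 ± 46.4 (SD, n = 3), Col4a1 at 664 ± 77.5, Col4a2 at 520.2 ± 39.8 and Col1a1 at 259 ± 36.3. Type IV chains made up 48.5% ± 1.83 (SD, n = 3) of the summed collagen FPKM and fibrillar chains 48.0% ± 1.61. In control cortex Col4a3 (26.1 ± 1.79 FPKM, SD, n = 4), Col4a1 (25.8 ± 2.68), Col4a2 (22.9 ± 2.60), Col4a4 (22.0 ± 0.980) and Col18a1 (18.6 ± 0.743) were the most abundant, and the first 2 lay within each other's spread. There type IV held 61.7% ± 1.28 of the collagen FPKM, the multiplexins with type VII 13.4% ± 0.742 and fibrillar chains only 13.7% ± 0.764. The FPKM values of the 2 tables cannot be set against each other, because the gene lengths behind them differ (5222 bases for Col1a2 in one and 13439 in the other). Of the 44 genes, 19 stayed under a mean of 1 FPKM in every group.

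**Figure D1:**
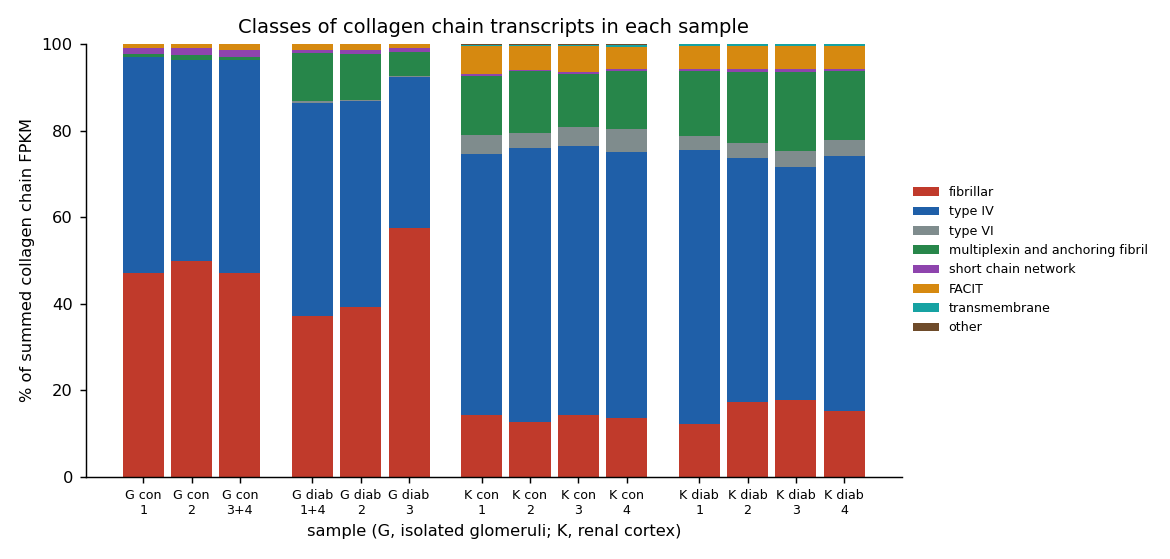
Share of the summed FPKM of the 44 collagen chain genes held by each class (vertical axis, percent) in each of 6 glomerular (G) and 8 cortex (K) samples, con for control and diab for diabetic. Type IV and fibrillar chains fill most of every glomerular bar, and the multiplexin and anchoring fibril share is 0.617% to 1.05% in control and 5.52% to 11.1% in diabetic glomeruli.

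Counts set the control tissues side by side on 1 scale. Of 42 collagen chain genes tested, 22 were higher in glomeruli and 12 in cortex (edgeR quasi-likelihood test, Benjamini-Hochberg adjusted p under 0.05, as in all comparisons below). Of all genes tested 38.7% were higher in glomeruli and 39.7% in cortex (78.5% in all), so a call alone sets no gene apart. All 6 type IV chains were higher in control glomeruli, with log2 differences from 2.11 ± 0.19 (SE) for Col4a4 and 2.48 ± 0.23 (SE) for Col4a3 to 4.17 ± 0.14 (SE) for Col4a1. Col1a2 (6.02 ± 0.38 (SE)), Col5a2 (5.46 ± 0.20 (SE)) and Col12a1 (5.65 ± 0.28 (SE)) were further apart still. On the other side, 4 of 6 type VI chains were higher in cortex, among them Col6a1 (-2.96 ± 0.31 (SE)) and Col6a2 (-3.62 ± 0.25 (SE)), as were Col14a1 (-2.25 ± 0.28 (SE)) and Col27a1 (-3.84 ± 0.34 (SE)). Col18a1 (-0.12 ± 0.15 (SE), adjusted p = 0.486) and Col6a3 (0.01 ± 0.16 (SE), adjusted p = 0.947) did not pass the test. Tissue and the way each table was annotated and counted cannot be told apart in this comparison.

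Collagen genes called in diabetic glomeruli were mostly lower, and those called in diabetic cortex mostly higher. The filter on low counts left 36 of the 44 genes in glomeruli and 37 in cortex. In glomeruli 4 of 36 tested collagen genes were higher and 13 were lower, where 19.4% of all 15238 genes tested were higher and 18.2% lower. Their median log2 fold change was -0.48, against 0.01 over all genes. Samples of the 2 groups did not overlap for 6 members that were higher and 14 that were lower in all diabetic samples, where 26.6% and 27.6% of all genes did so. In cortex 11 of 37 tested members were higher and 3 lower, where 10.8% of 19228 genes were higher and 9.29% lower, and the members' median was 0.19 against -0.0036 over all genes. All diabetic cortex samples lay above all controls for 13 members and below them for 3, against 13.5% and 11.4% of all genes. The summed CPM of all 44 genes was 23439 to 23530.4 in control and 7371 to 12340.3 in diabetic glomeruli, and 1439 to 1599.8 in control and 1685 to 1839 in diabetic cortex.

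By class, glomeruli showed 6 of 6 type IV chains lower, fibrillar chains split (2 higher and 3 lower of 10), both Col18a1 and Col7a1 higher, 1 type VI chain and 1 type VIII chain lower, and 2 of 6 FACIT chains lower. The median log2 fold change over the tested chains of a class was -1.54 for type IV, -0.58 for fibrillar and -0.58 for FACIT chains. Cortex showed 2 type IV chains higher and 1 lower, 3 fibrillar chains higher and 1 lower of 9, both type VIII chains and 2 of 6 FACIT chains higher, and no call among 6 type VI chains (1 at an unadjusted p under 0.05, and 1 by DESeq2). Class medians there were -0.23 for type IV, 0.61 for fibrillar and 0.38 for FACIT chains. Across tissues, Col18a1 and Col27a1 were higher in both, and Col4a5 and Col5a2 lower in both. Col4a1, Col4a2, Col8a1 and Col12a1 were lower in diabetic glomeruli but higher in diabetic cortex. The share of all genes with each such pair of calls was not computed, so these pairs do not set the family apart. With diabetic glomerular library 2 alone against the controls, 2 members were higher and 9 lower, where 1356 of all 15835 genes tested were higher and 937 lower. With library totals in place of TMM normalisation, 6 members were higher and 12 lower in glomeruli, where 4383 of all 15238 genes tested were higher and 1662 lower. The share of all called genes that were higher then went from 51.6% to 72.5% and the median over all genes from 0.01 to 0.20.

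**Figure D2:**
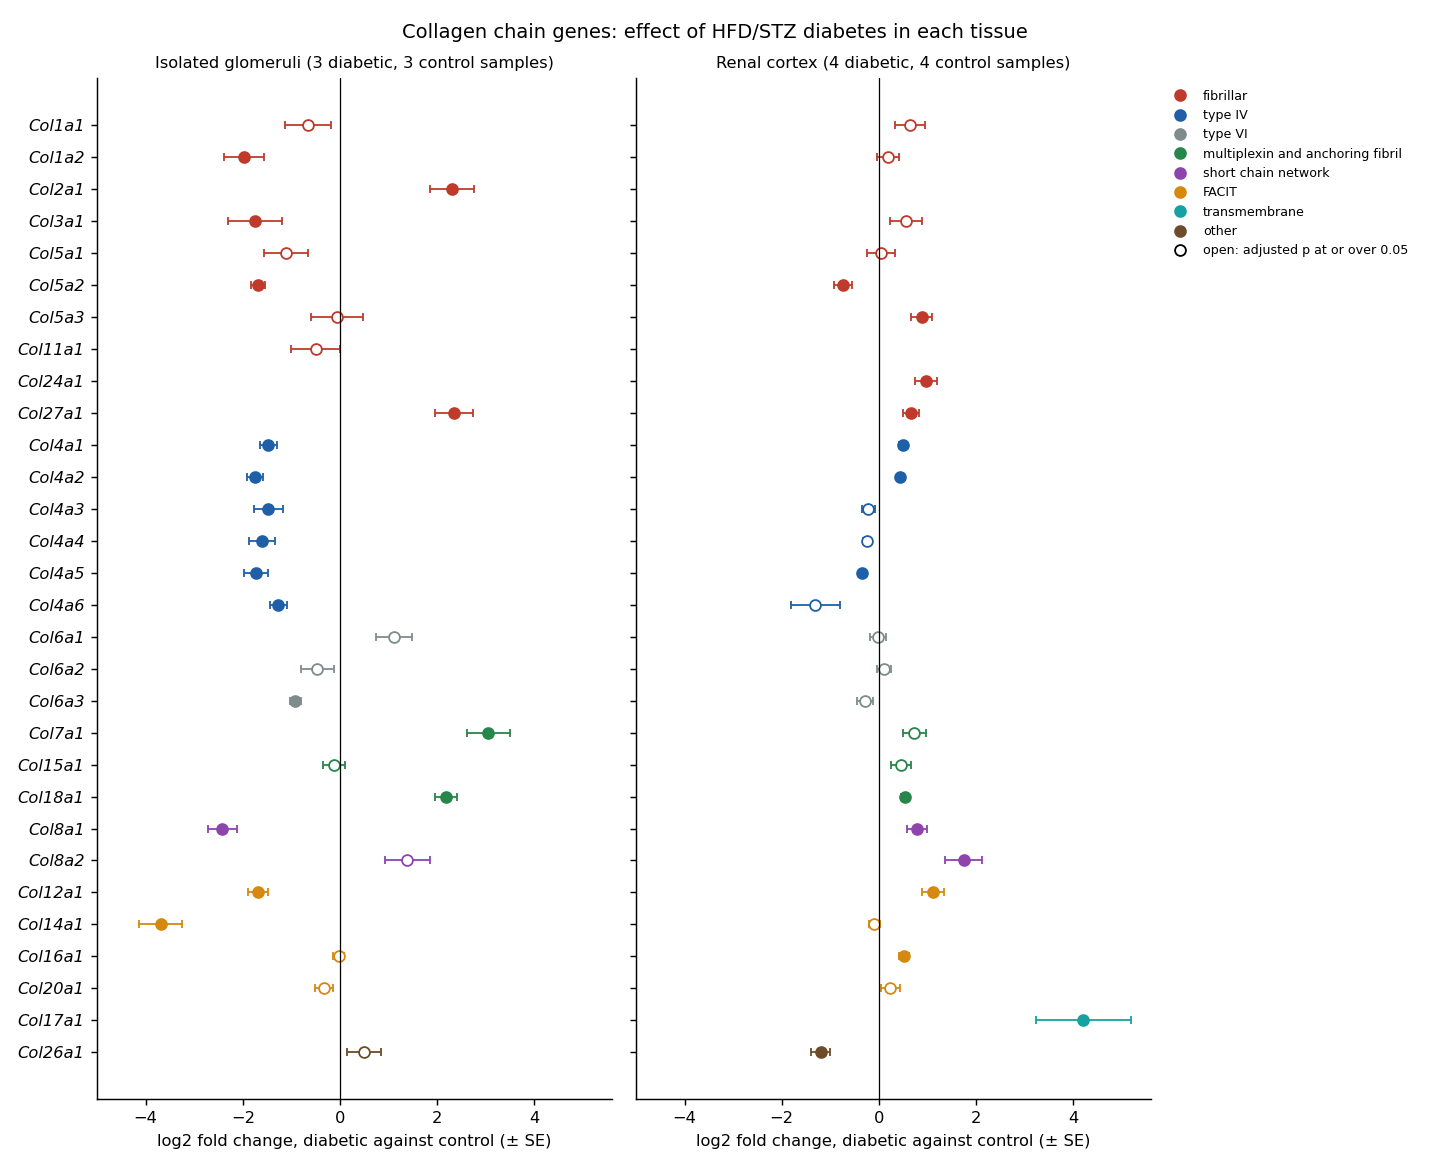
Log2 fold change of diabetic against control samples (horizontal axis, bars ± SE from edgeR) for the 30 collagen chain genes with at least 1 FPKM in a group or a call, in glomeruli (left) and cortex (right), coloured by class with filled points for adjusted p under 0.05. The 6 type IV points lie left of 0 in glomeruli, from -1.75 to -1.27, while Col4a1 (0.49) and Col4a2 (0.44) lie right of it in cortex, and a gene with no point was not tested in that tissue.

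All 6 type IV genes fell in diabetic glomeruli. Col4a1, the α1 chain found in nearly every basement membrane (chr8:11198423-11312826, minus strand, GRCm38), stood at 4555, 5266 and 4235 CPM in control samples 1, 2 and 3+4, while diabetic samples 1+4, 2 and 3 held 1444, 1526 and 2082 CPM. The groups did not overlap, and the fold change was -1.48 ± 0.18 (SE), adjusted p = 0.00176. Its partner Col4a2 (chr8:11312805-11449287, plus strand) stood at 3632, 3834 and 3276 CPM in control glomeruli and 936, 959 and 1300.3 CPM in diabetic ones, also apart (-1.75 ± 0.17 (SE), adjusted p = 0.000850). In bulk tissue, fewer cells of a type and less RNA per cell cannot be told apart. Both genes kept their calls with diabetic library 2 alone (-1.59, adjusted p = 0.0147, and -1.87, adjusted p = 0.00858).

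The chains of the mature glomerular basement membrane fell as well. Col4a3 was at 1995, 1199 and 2677 CPM in control and 733, 776 and 604 CPM in diabetic glomeruli (-1.47 ± 0.29 (SE), adjusted p = 0.00913). Col4a4 was at 1542, 837 and 1679.7 CPM in control and 473, 475 and 392 CPM in diabetic samples (-1.60 ± 0.27 (SE), adjusted p = 0.00504). For both, control sample 2 was the lowest control and still above every diabetic sample. Col4a5, the X-linked α5 chain, was at 1056, 516 and 747 CPM in control and 218, 239 and 245 CPM in diabetic samples (-1.73 ± 0.25 (SE), adjusted p = 0.00319). Col4a6, the α6 chain of Bowman's capsule and tubule basement membranes, was far less abundant at 68.3, 44.0 and 65.7 CPM in control and 24.4, 25.5 and 24.0 CPM in diabetic samples (-1.27 ± 0.17 (SE), adjusted p = 0.00241). With diabetic library 2 alone the fold changes were of similar size but no longer passed the test (Col4a3 -1.31, adjusted p = 0.154, Col4a4 -1.49, adjusted p = 0.102, Col4a5 -1.67, adjusted p = 0.0718, Col4a6 -1.19, adjusted p = 0.0660).

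Cortex split the family. Col4a1 rose, at 208, 193, 217 and 224 CPM in control cortex and 259, 317, 322 and 282 CPM in diabetic cortex (0.49 ± 0.08 (SE), adjusted p = 0.00357), and Col4a2 rose with it, at 168, 151, 164 and 179 CPM in control and 205, 231, 236 and 229 CPM in diabetic samples (0.44 ± 0.07 (SE), adjusted p = 0.00258). Every diabetic sample lay above every control for both. Col4a5 fell, at 40.2, 39.8, 46.7 and 45.7 CPM in control and 34.3, 34.1, 34.5 and 32.3 CPM in diabetic samples (-0.35 ± 0.07 (SE), adjusted p = 0.00653), a call lost when all 4 groups were modelled together (adjusted p = 0.154). Col4a3 (-0.22 ± 0.13 (SE), adjusted p = 0.285) and Col4a4 (-0.25 ± 0.09 (SE), adjusted p = 0.0679) did not pass the test, but both did without diabetic sample 1 (-0.38, adjusted p = 0.0120, and -0.33, adjusted p = 0.0151). That sample held 323 CPM of Col4a3 against 197 to 235 CPM in the other diabetic samples. Col4a6 was at 1.22, 1.68, 4.73 and 3.66 CPM and 1.39, 1.09, 1.67 and 0.404 CPM, with overlapping groups.

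The difference between tissues was itself tested, as the glomerular minus the cortical fold change. It was called for 20 of 42 members (6 higher and 14 lower in the glomerular direction), where 35.0% of 16305 genes were called, 18.8% higher and 16.3% lower. Col4a1 (-1.96 ± 0.19 (SE), adjusted p = 6.77e-06) and Col4a2 (-2.19 ± 0.17 (SE), adjusted p = 9.90e-07) differed most within type IV. Col4a3 (-1.26 ± 0.32 (SE)), Col4a4 (-1.35 ± 0.27 (SE)) and Col4a5 (-1.38 ± 0.25 (SE)) differed too, with adjusted p-values of 0.00875, 0.00214 and 0.000945. Col4a6 did not (0.04 ± 0.60 (SE), adjusted p = 0.966). The genes with the more positive effect in glomeruli were Col6a1, Col6a6, Col7a1, Col18a1, Col26a1 and Col27a1, and outside type IV those with the more negative effect were Col1a2, Col3a1, Col5a2, Col6a3, Col8a1, Col12a1, Col14a1, Col16a1 and Col28a1. With diabetic glomerular library 2 alone, 3 members were higher and 12 lower, where 1756 of all 17026 genes tested were higher and 2001 lower, and Col4a3 was no longer called (adjusted p = 0.0795).

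**Figure D3:**
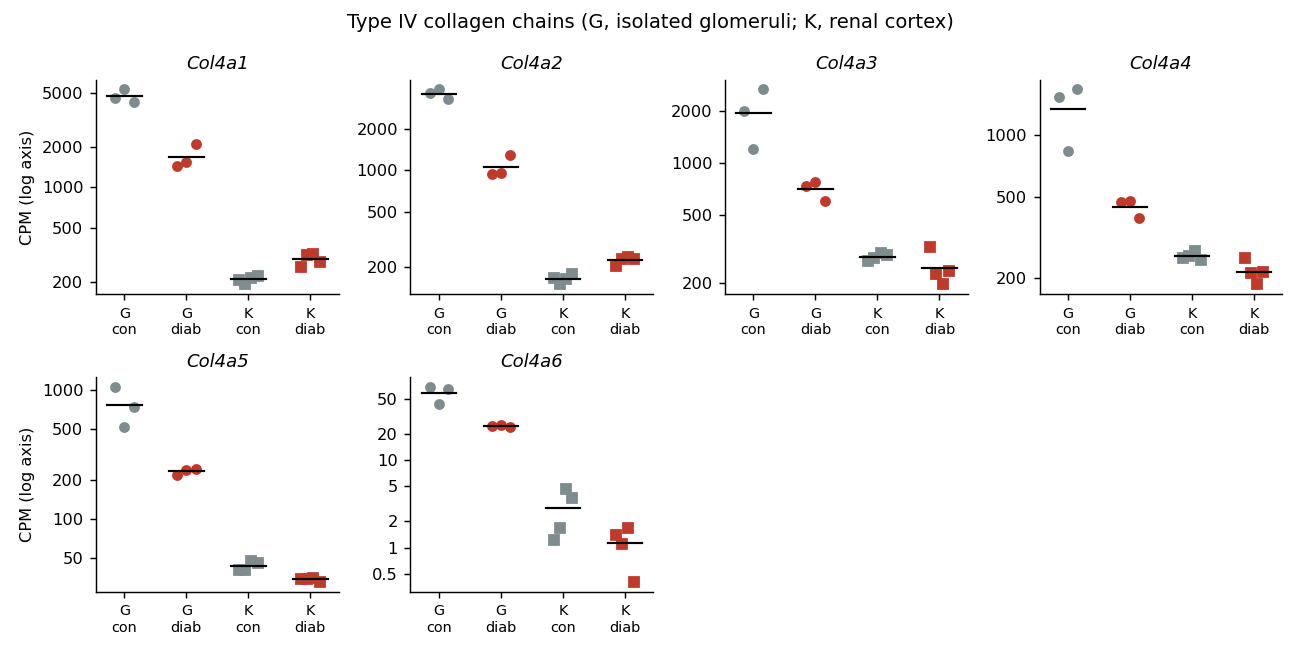
CPM (log axis) of the 6 type IV chains in each sample, circles for glomeruli (G) and squares for cortex (K), grey for control and red for diabetic, with a line at the group mean. In glomeruli every diabetic point lies below every control point for all 6 chains, and in cortex the diabetic points of Col4a1 and Col4a2 lie above the controls.

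Chains of 1 family kept some ratios and not others. The FPKM ratio of Col4a1 to Col4a2 was 1.27 ± 0.0593 (SD, n = 3) in control and 1.54 ± 0.0303 in diabetic glomeruli, with no overlap. In cortex it was 1.13 ± 0.0305 (SD, n = 4) and 1.16 ± 0.0637, within its spread. The ratio of Col4a3 to Col4a4 was 1.71 ± 0.178 and 1.87 ± 0.0617 in glomeruli, which overlapped. The ratio of Col4a1 to Col4a3, the widely used against the mature glomerular chain, was 3.73 ± 1.98 and 3.33 ± 1.16 in glomeruli, with overlap. In control and diabetic cortex it was 0.987 ± 0.0544 and 1.68 ± 0.470, with every diabetic sample above every control. These ratios are descriptions with no test. Among all chains, diabetic glomeruli had Col4a1 first (271 ± 49.5 FPKM), followed by Col1a2 (246 ± 144), Col1a1 (186 ± 133) and Col4a2 (176 ± 29.6), whose order is within the spread of the type I chains. The share of type IV was 43.9% ± 7.84 and that of fibrillar chains 44.6% ± 11.2 in diabetic glomeruli, each overlapping the controls. In diabetic cortex the shares were 58.1% ± 4.04 and 15.6% ± 2.48 (SD, n = 4), also overlapping, and Col4a1 led there at 37.2 ± 4.96 FPKM.

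The type IV genes lie in head-to-head pairs, each pair sharing the DNA between its start sites. On GRCm38 the annotated transcripts of Col4a1 and Col4a2 on chromosome 8 overlap by 22 bases at their start sites. Those of Col4a4 and Col4a3 on chromosome 1 are 71 bases apart, and those of Col4a6 and Col4a5 on chromosome X 1308 bases apart. The bases before the start site that lie outside annotated exons are shown for the last 2 pairs, to set the shared DNA beside genes that fell together in diabetic glomeruli. Col4a1 and Col4a2, which also fell there, have no such bases before their start sites. They are from RefSeq (GRCm38.p6), 5′ to 3′ on the gene's strand, with capitals for the CCAAT box (CCAAT) and GC box (GGGCGG) on either strand. The Col4a4 stretch is the whole gap between it and Col4a3.
Col4a4 (chr1:82586850-82586920, minus strand): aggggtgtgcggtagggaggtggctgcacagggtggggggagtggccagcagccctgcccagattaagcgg
Col4a6 (chrX:141474077-141474326, minus strand): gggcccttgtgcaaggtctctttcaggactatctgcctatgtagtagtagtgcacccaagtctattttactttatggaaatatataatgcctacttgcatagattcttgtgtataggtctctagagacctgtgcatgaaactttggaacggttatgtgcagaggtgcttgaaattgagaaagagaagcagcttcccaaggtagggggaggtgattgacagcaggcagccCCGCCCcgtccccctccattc
Col4a5 (chrX:141475169-141475384, plus strand): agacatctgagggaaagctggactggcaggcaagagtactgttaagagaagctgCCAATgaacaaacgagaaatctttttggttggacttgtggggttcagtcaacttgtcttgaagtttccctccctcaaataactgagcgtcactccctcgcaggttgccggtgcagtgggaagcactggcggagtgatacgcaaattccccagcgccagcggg
The Col4a4 stretch held neither motif, nor a TATA box (TATAAA), the Col4a6 stretch held 1 GC box and the Col4a5 stretch 1 CCAAT box. Over 38 RefSeq promoter windows of 300 bases (250 before and 50 after the start) for 35 of the 44 genes, 60.5% held a GC box, 34.2% a CCAAT box and 13.2% a TATA box. Over all 32851 RefSeq windows the shares were 35.7%, 37.4% and 13.6%. GGAATG, the core bound by the TEAD factors of the Hippo pathway named in the study's title, was in 13.2% of collagen windows and 14.7% of all. A motif match is a description, not a binding site.

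Of the 2 chains of type I collagen, the main fibril protein, Col1a2 alone passed the test in glomeruli. Col1a2 (chr6:4504814-4541544) fell, at 5033, 4432 and 4849 CPM in control glomeruli and 731, 841 and 2063 CPM in diabetic ones (-1.98 ± 0.40 (SE), adjusted p = 0.0107). Col1a1 (chr11:94936224-94953042) was at 1465, 1871 and 1581 CPM in control and 552, 641 and 1934 CPM in diabetic samples, short of the threshold (-0.65 ± 0.48 (SE), adjusted p = 0.317). Diabetic sample 3 held more Col1a1 than any control, while the other diabetic samples held less than every control. Without sample 3 Col1a1 was lower (-1.44, adjusted p = 0.00253). The FPKM ratio of Col1a1 to Col1a2 was 0.305 ± 0.0598 (SD, n = 3) in control and 0.721 ± 0.0909 in diabetic glomeruli, with no overlap, sample 3 included. In cortex neither chain passed the test. Col1a2 was at 64.0, 39.1, 62.2 and 73.6 CPM in control and 48.2, 77.2, 84.2 and 62.7 CPM in diabetic samples, and Col1a1 at 24.6, 19.1, 26.7 and 26.4 CPM in control and 17.8, 49.2, 51.2 and 32.7 CPM in diabetic samples (0.64 ± 0.31 (SE), adjusted p = 0.198). The lowest Col1a1 value of all cortex samples was that of diabetic sample 1, and without it Col1a1 was called higher (0.87, adjusted p = 0.0107).

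Col3a1, which forms fibrils with type I, showed the same uneven diabetic samples, at 256, 505 and 256 CPM in control and 51.4, 60.9 and 189 CPM in diabetic glomeruli (-1.76 ± 0.56 (SE), adjusted p = 0.0476). That call was lost without control sample 1, 2 or 3+4 or diabetic sample 1+4 or 2 (adjusted p from 0.0772 to 0.132), and when library totals replaced TMM (-1.59, adjusted p = 0.0612). In cortex it was at 43.4, 27.0, 43.2 and 55.3 CPM in control and 32.7, 75.2, 87.7 and 52.1 CPM in diabetic samples, short of the threshold (0.55 ± 0.33 (SE), adjusted p = 0.295). Type V chains regulate fibril width. Col5a2 fell in both tissues, from 1616 ± 58.4 (SD, n = 3) to 501 ± 83.1 CPM in glomeruli (-1.69 ± 0.14 (SE), adjusted p = 0.000633). In cortex it was at 26.6, 35.4, 33.7 and 23.7 CPM in control and 18.3, 21.4, 19.1 and 12.4 CPM in diabetic samples, without overlap (-0.74 ± 0.18 (SE), adjusted p = 0.0184). Its partner Col5a1 was at 1101, 1524 and 1099 CPM in control and 324, 377 and 1021 CPM in diabetic glomeruli, where diabetic sample 3 again stood near the controls (-1.11 ± 0.45 (SE), adjusted p = 0.0937). Without that sample it was lower (-1.80, adjusted p = 0.00269), and it was also called by DESeq2 (adjusted p = 0.0174). Col5a3 was at 259.9, 794 and 277 CPM in control and 269, 314 and 691 CPM in diabetic glomeruli, with 1 high sample in each group. In cortex it rose, at 3.48, 3.55, 4.07 and 7.09 CPM in control and 8.35, 9.12, 8.11 and 7.93 CPM in diabetic samples (0.88 ± 0.22 (SE), adjusted p = 0.0197), a call lost without control sample 1, 2 or 3 or diabetic sample 2 (adjusted p from 0.0521 to 0.0572).

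Col27a1, a fibrillar chain best known from cartilage, rose in both tissues. It was at 4.22, 12.6 and 6.46 CPM in control and 43.0, 30.9 and 44.3 CPM in diabetic glomeruli (2.35 ± 0.40 (SE), adjusted p = 0.00521), without overlap. In cortex it was at 104, 95.3, 98.3 and 58.1 CPM in control and 127, 143, 137 and 156 CPM in diabetic samples (0.66 ± 0.16 (SE), adjusted p = 0.0220). The glomerular call was lost with diabetic library 2 alone (2.02, adjusted p = 0.0846), and the cortical one without diabetic sample 2, 3 or 4 (adjusted p from 0.0520 to 0.0626). Col2a1, the main collagen of cartilage, rose in glomeruli at a level near the detection limit, 0.0805, 0.106 and 0.114 CPM in control and 0.710, 0.502 and 0.310 CPM in diabetic samples (2.31 ± 0.45 (SE), adjusted p = 0.00887), and lost its call with library 2 alone (adjusted p = 0.0731). In cortex it had counts in 1 of 4 control and 3 of 4 diabetic samples. Col24a1 rose in cortex, at 0.976, 0.703, 0.805 and 0.819 CPM in control and 1.70, 1.37, 1.82 and 1.59 CPM in diabetic samples (0.97 ± 0.22 (SE), adjusted p = 0.0128). Col11a1 was at 14.8, 36.5 and 23.8 CPM in control and 10.2, 11.5 and 31.5 CPM in diabetic glomeruli, with overlapping groups, and at or near 0 in cortex.

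**Figure D4:**
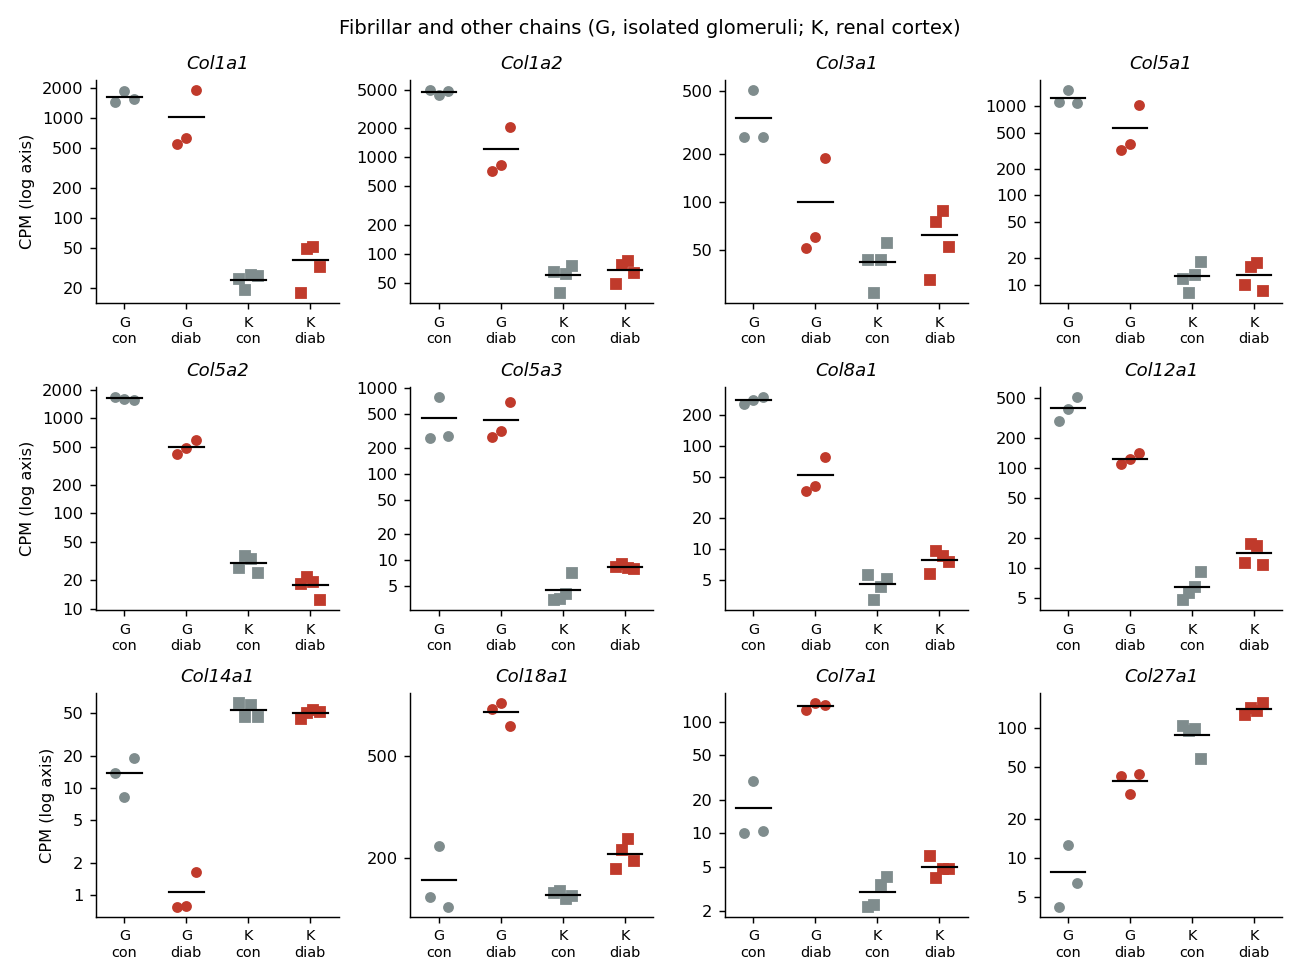
CPM (log axis) of 12 fibrillar and other chains in each sample, circles for glomeruli (G) and squares for cortex (K), grey for control and red for diabetic, with a line at the group mean. Diabetic glomerular sample 3 is the highest red circle for Col1a1, Col1a2, Col3a1, Col5a1 and Col5a3, and the diabetic circles of Col18a1, Col7a1 and Col27a1 all lie above the controls.

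Of the multiplexins and type VII, Col18a1 and Col7a1 rose in glomeruli and Col15a1 was not called. Col18a1, the multiplexin whose end fragment is endostatin (chr10:77052178-77166548, minus strand), rose, at 141, 221 and 129 CPM in control and 762, 802 and 656 CPM in diabetic glomeruli (2.18 ± 0.23 (SE), adjusted p = 0.00112). It also rose in cortex, at 146, 148, 137 and 142 CPM in control and 181, 214, 237 and 194 CPM in diabetic samples (0.53 ± 0.08 (SE), adjusted p = 0.00230), and the groups were apart in both tissues. The glomerular rise was larger (1.66 ± 0.21 (SE) for the difference, adjusted p = 8.02e-05). Col18a1 thereby held 103 ± 12.4 FPKM (SD, n = 3) in diabetic glomeruli, against 176 ± 29.6 for Col4a2 there and 20.1 ± 6.33 for itself in controls. Col7a1, the anchoring fibril chain of skin (chr9:108953586-108984875, plus strand), rose, at 10.1, 29.7 and 10.5 CPM in control and 127, 146 and 142 CPM in diabetic samples (3.05 ± 0.44 (SE), adjusted p = 0.00312). Both genes kept their calls with diabetic library 2 alone (adjusted p = 0.0190 for Col18a1 and 0.0411 for Col7a1). In cortex Col7a1 was low, at 2.19, 2.26, 3.39 and 4.07 CPM in control and 6.23, 3.99, 4.73 and 4.79 CPM in diabetic samples (0.73 ± 0.23 (SE), adjusted p = 0.0526), and passed the test without control sample 4 (adjusted p = 0.0135). Col15a1, the other multiplexin, was at 25.6 ± 6.07 and 23.3 ± 5.22 CPM (SD, n = 3) in glomeruli and 24.2 ± 5.38 and 33.1 ± 8.43 CPM (SD, n = 4) in cortex, with overlap in both.

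The short-chain collagens of type VIII, which line vessels and are made by endothelial and mesangial cells, behaved differently by chain. Col8a1 (chr16:57624258-57754737, minus strand) fell in glomeruli, at 256, 282 and 304 CPM in control and 36.6, 41.5 and 79.3 CPM in diabetic samples (-2.42 ± 0.30 (SE), adjusted p = 0.00194). In cortex it rose, at 5.58, 3.22, 4.33 and 5.17 CPM in control and 5.73, 9.62, 8.65 and 7.47 CPM in diabetic samples (0.78 ± 0.21 (SE), adjusted p = 0.0247). That cortical call was lost without any of control samples 2 and 3 and diabetic samples 2, 3 and 4 (adjusted p from 0.0531 to 0.0770). The difference between tissues was -3.20 ± 0.38 (SE), adjusted p = 5.11e-05. Col8a2 was low throughout, at 0.242, 0.397 and 0.292 CPM in control and 0.526, 0.616 and 1.31 CPM in diabetic glomeruli (1.38 ± 0.46 (SE), adjusted p = 0.0543), where it passed when library totals replaced TMM (adjusted p = 0.0347). In cortex Col8a2 rose, at 0.206, 0.222, 0.205 and 0.226 CPM in control and 0.552, 1.13, 0.720 and 0.485 CPM in diabetic samples (1.75 ± 0.38 (SE), adjusted p = 0.0109). Col10a1, the chain of growth-plate cartilage, stayed at 2.22 CPM or less in every sample and was not called in glomeruli.

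Upstream bases are shown for Col18a1 and Col7a1, which rose in glomeruli, and for Col8a1 and Col3a1, which fell there (RefSeq, GRCm38.p6, 5′ to 3′ on the gene's strand, up to the base before the start site or the first exon). Capitals mark the CCAAT box, the GC box, the TATA box and GGAATG on either strand. The Col18a1 stretch belongs to the upstream of its 2 windows.
Col18a1 (chr10:77166549-77166780, minus strand): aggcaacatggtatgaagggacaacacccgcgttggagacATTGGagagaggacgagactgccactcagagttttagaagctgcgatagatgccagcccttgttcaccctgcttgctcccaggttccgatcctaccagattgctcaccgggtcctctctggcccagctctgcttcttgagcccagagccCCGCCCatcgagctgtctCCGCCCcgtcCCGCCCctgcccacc
Col7a1 (chr9:108953336-108953585, plus strand): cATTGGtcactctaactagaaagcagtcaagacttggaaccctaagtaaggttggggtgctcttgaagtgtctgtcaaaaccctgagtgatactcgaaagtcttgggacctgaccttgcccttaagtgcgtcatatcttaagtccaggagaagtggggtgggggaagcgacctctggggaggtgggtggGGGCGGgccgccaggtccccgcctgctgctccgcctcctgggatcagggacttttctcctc
Col8a1 (chr16:57754738-57754987, minus strand): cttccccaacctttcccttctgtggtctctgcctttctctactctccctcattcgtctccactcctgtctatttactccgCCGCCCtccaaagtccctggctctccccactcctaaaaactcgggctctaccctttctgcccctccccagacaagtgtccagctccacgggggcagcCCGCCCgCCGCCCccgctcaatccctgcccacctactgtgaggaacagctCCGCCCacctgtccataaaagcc
Col3a1 (chr1:45311288-45311537, plus strand): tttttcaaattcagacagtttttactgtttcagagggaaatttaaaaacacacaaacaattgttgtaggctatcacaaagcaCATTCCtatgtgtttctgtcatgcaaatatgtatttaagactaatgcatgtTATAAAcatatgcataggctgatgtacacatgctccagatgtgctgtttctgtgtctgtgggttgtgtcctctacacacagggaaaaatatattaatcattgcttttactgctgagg
The Col18a1 stretch held 3 GC boxes and 1 CCAAT box and the Col7a1 stretch 1 of each. The other Col18a1 window, not shown, had a stretch of only 9 bases with no motif. That whole window held 2 GGAATG and no GC or CCAAT box. Col8a1 held 4 GC boxes, and Col3a1 held 1 TATA box and 1 GGAATG with no GC box. GC boxes thus stood before genes that moved in either direction.

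Among FACIT collagens, Col14a1 (undulin) had the largest glomerular change of the 30 genes with the larger values, those in the plot of fold changes. It fell, at 13.9, 8.20 and 19.2 CPM in control and 0.783, 0.799 and 1.64 CPM in diabetic glomeruli (-3.69 ± 0.45 (SE), adjusted p = 0.00177). In cortex, where it was more abundant, it was at 61.8, 46.2, 60.3 and 45.8 CPM in control and 44.4, 50.8, 54.2 and 51.1 CPM in diabetic samples, with overlap (-0.09 ± 0.11 (SE), adjusted p = 0.602). The effect differed between tissues (-3.63 ± 0.41 (SE), adjusted p = 3.56e-05). Col12a1, which bridges fibrils in tissue under load, fell in glomeruli, at 296, 389 and 519 CPM in control and 110.2, 123 and 140.2 CPM in diabetic samples (-1.69 ± 0.22 (SE), adjusted p = 0.00207), just short of a call with diabetic library 2 alone (adjusted p = 0.0544). In cortex it rose, at 4.80, 5.62, 6.42 and 9.05 CPM in control and 11.2, 17.4, 16.5 and 10.8 CPM in diabetic samples (1.11 ± 0.23 (SE), adjusted p = 0.00858). The difference was -2.80 ± 0.35 (SE), adjusted p = 7.67e-05. Col16a1 was at 41.2 ± 1.22 and 40.4 ± 5.99 CPM in glomeruli (SD, n = 3) and rose in cortex, at 13.3, 11.8, 10.9 and 15.1 CPM in control and 17.5, 19.8, 18.5 and 17.5 CPM in diabetic samples (0.52 ± 0.11 (SE), adjusted p = 0.00815). Col20a1 was at 9.07 ± 0.898 and 7.22 ± 1.53 CPM in glomeruli and 2.57 CPM or less in cortex, and passed in neither.

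Type VI chains, which assemble from α1, α2 and α3 subunits, had 1 call among 4 tested in glomeruli. Of all genes tested there, 37.5% were called. Col6a3 fell in glomeruli, at 27.1, 32.0 and 30.0 CPM in control and 17.0, 15.9 and 14.0 CPM in diabetic samples (-0.93 ± 0.11 (SE), adjusted p = 0.00176). Col6a1 was at 3.25, 3.25 and 2.34 CPM in control and 4.59, 4.40 and 10.0 CPM in diabetic samples, all diabetic samples above all controls (1.11 ± 0.37 (SE), adjusted p = 0.0560). It passed with DESeq2 (adjusted p = 0.0142), when library totals replaced TMM (0.0317) and without diabetic sample 2 (0.0497). Col6a2 was at 1.24, 0.714 and 1.36 CPM in control and 0.856, 0.662 and 0.881 CPM in diabetic samples, with overlap. The FPKM ratio of Col6a3 to Col6a1 was 3.79 ± 0.848 (SD, n = 3) in control and 1.06 ± 0.479 in diabetic glomeruli, without overlap. In cortex the 3 chains stood at 18.5 ± 4.64 and 18.2 ± 2.52 CPM (Col6a1, SD, n = 4), 11.2 ± 1.95 and 12.1 ± 1.64 CPM (Col6a2), and 23.8 ± 5.65 and 19.6 ± 2.58 CPM (Col6a3), all within their spread.

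Col17a1, a membrane collagen of epithelial hemidesmosomes, rose in cortex, at 0, 0, 0 and 0.0847 CPM in control and 0.297, 0.434, 0.313 and 0.793 CPM in diabetic samples (adjusted p = 0.0142). Its control level rested on 6 counts in sample 4, and without diabetic sample 4 the adjusted p was 0.0519. In glomeruli it was at 0.0268, 0.0529 and 0.0254 CPM in control and 0.306, 0.251 and 0.119 CPM in diabetic samples, too low to be tested. Col26a1, a secreted chain, fell in cortex, at 3.41, 3.29, 3.44 and 3.49 CPM in control and 1.84, 1.61, 1.31 and 1.15 CPM in diabetic samples (-1.20 ± 0.19 (SE), adjusted p = 0.00256). In glomeruli it was at 0.698, 0.873 and 0.839 CPM in control and 1.44, 1.23 and 0.691 CPM in diabetic samples, with overlap, and the difference between tissues was 1.70 ± 0.37 (SE), adjusted p = 0.00336. The other 14 genes (Col6a4, Col6a5, Col6a6, Col9a1, Col9a2, Col9a3, Col10a1, Col11a2, Col13a1, Col19a1, Col22a1, Col23a1, Col25a1 and Col28a1) were under 1 FPKM in every group and not called in either tissue. Their highest sample values were 6.99 CPM in cortex (Col6a6) and 3.93 CPM in glomeruli (Col11a2). Col6a6 and Col9a1 had no count in control glomeruli, which allows up to 0.0184 CPM over the group (3 counts, for counting error only). In cortex Col9a2 had none in either group, and Col9a1 and Col28a1 had none in controls, which allows 0.0118 CPM in control and 0.0114 CPM in diabetic samples. Col6a6, at 0.0612, 0 and 0.0953 CPM in diabetic glomeruli, 1.51, 3.57, 6.99 and 4.26 CPM in control and 3.19, 1.50, 1.11 and 1.68 CPM in diabetic cortex, and Col28a1, at 0.134, 0.291 and 0.292 CPM in control and 0.0367, 0.0685 and 0.0238 CPM in diabetic glomeruli and 0, 0.280, 0 and 0 CPM in diabetic cortex, were called for the difference between tissues with a group at 0 (adjusted p = 0.0424 and 0.0448).

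Of 20 genes that modify, fold or bind new chains, 12 were lower and 0 higher in diabetic glomeruli (0 higher and 16 lower at an unadjusted p under 0.05, and 0 higher by DESeq2), with a median log2 fold change of -0.86. Of all genes tested there, 19.4% were higher and 18.2% lower. Sparc, a collagen-binding matrix protein, fell from 12554 ± 1034 (SD, n = 3) to 3019 ± 1041 CPM (-2.06 ± 0.26 (SE), adjusted p = 0.00185). P4ha3, a prolyl 4-hydroxylase subunit, fell by 2.70 on the log2 scale (adjusted p = 0.00131). Crtap, of the prolyl 3-hydroxylation complex, fell too (-1.01 ± 0.13 (SE), adjusted p = 0.00202), as did P3h3, of the prolyl 3-hydroxylase family (-1.24 ± 0.16 (SE), adjusted p = 0.00222). In cortex 4 of 19 such genes were higher and 0 lower (8 higher and 2 lower at an unadjusted p under 0.05, and 0 lower by DESeq2), among them Plod3, a lysyl hydroxylase (0.43 ± 0.06 (SE), adjusted p = 0.00128), and Sparc (0.50 ± 0.15 (SE), adjusted p = 0.0405). The number called there is near the share of all genes called in cortex (20.1%), and the median was 0.11.

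Crosslinking enzymes were called in both directions in glomeruli. The counts for this list and the next 2 stand beside 19.4% of all genes higher and 18.2% lower in glomeruli. In cortex those shares were 10.8% and 9.29%. In glomeruli 4 of 7 were lower and 2 higher, and in cortex 3 were higher and 0 lower (5 higher and 0 lower at an unadjusted p under 0.05 and also by DESeq2). Lox, the lysyl oxidase that starts crosslinks in fibrils, fell from 3238 ± 911 (SD, n = 3) to 575 ± 292 CPM (-2.49 ± 0.40 (SE), adjusted p = 0.00456), and Loxl2, which also crosslinks type IV collagen, fell from 1966 ± 331 to 778 ± 342 CPM (-1.34 ± 0.31 (SE), adjusted p = 0.0164). Tgm2, a transglutaminase, rose (0.69 ± 0.16 (SE), adjusted p = 0.0164). In cortex Loxl1 rose from 14.6 ± 1.64 (SD, n = 4) to 25.7 ± 2.56 CPM (0.82 ± 0.10 (SE), adjusted p = 0.00104). Of 11 genes for procollagen cleavage and export, 2 were higher and 4 lower in glomeruli, with Pcolce, the enhancer of C-propeptide removal, lower (-1.25 ± 0.21 (SE), adjusted p = 0.00527), and 2 were higher and 1 lower in cortex. Of 9 collagen receptors tested, 1 was higher and 6 lower in glomeruli, and 4 were higher and 0 lower in cortex (4 higher and 1 lower at an unadjusted p under 0.05, and 0 lower by DESeq2). Itga11, the α11 integrin chain that binds fibrillar collagen, fell from 203 ± 99.8 to 8.96 ± 0.519 CPM in glomeruli (-4.50 ± 0.44 (SE), adjusted p = 0.000972). Ddr1, the receptor kinase for collagens including type IV, fell there (-0.64 ± 0.11 (SE), adjusted p = 0.00505) and rose in cortex (0.52 ± 0.07 (SE), adjusted p = 0.00121).

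Markers of several cell types moved with these results. Of all genes tested in glomeruli, 19.4% were higher and 18.2% lower, and the fibroblast and macrophage counts below are near those shares. In glomeruli the summed level of 8 smooth muscle and renin cell markers was 17639.8 to 20102 CPM in control and 3516 to 6312 CPM in diabetic samples, with 6 of 8 lower. Acta2 and Tagln (means of 9728 and 7388 CPM in control) made up most of that sum. The renin cell markers were not lower. Ren1 averaged 20.2 CPM in control and 44.2 CPM in diabetic samples, and Akr1b7 1.05 and 1.60 CPM, both with overlapping groups. Acta2 alone, the smooth muscle actin, was at 9875, 10377 and 8932 CPM in control and 1486, 1761 and 3148 CPM in diabetic samples, highest among the latter in sample 3. Mesangial markers summed to 1603 to 1907 CPM in control and 1063 to 1752 CPM in diabetic samples (3 of 8 lower) and podocyte markers to 4886 to 6122 CPM and 2341 to 4579 CPM (4 of 12 lower). Fibroblast markers were low in both groups (63.4 to 87.7 CPM in control and 41.9 to 84.9 CPM, 1 of 6 lower), and no endothelial marker of 8 was called (722 to 1064 and 506 to 1051 CPM, 0 at an unadjusted p under 0.05 and 0 by DESeq2). The fibroblast sum was mostly Pi16 (means of 41.4 CPM in control and 40.8 CPM in diabetic samples) and Pdgfra (17.3 and 20.6 CPM). Within it Dcn went from 9.78 ± 2.25 (SD, n = 3) to 0.825 ± 0.197 CPM. Parietal epithelial markers summed to 548 to 754 CPM in control and 1589 to 2627 CPM in diabetic samples (3 of 6 higher, 1 lower). Most of that rise was in the keratins Krt8 (means of 7.93 and 973 CPM) and Krt18 (5.25 and 485 CPM). Cldn1 (113 and 216 CPM) and Cd44 (140 and 238 CPM) also had higher means. Pax8 (98.5 and 83.2 CPM) and Ncam1 (261 and 148 CPM) had lower ones. Proximal tubule markers summed to 72.5 to 94.0 CPM in control and 101 to 1050.4 CPM in diabetic samples (7 of 10 higher), distal nephron markers summed to 57.0 to 76.4 CPM in control and 181 to 1839 CPM in diabetic samples (6 of 9 higher), and macrophage markers summed to 281 to 697 CPM in control and 194 to 589 CPM in diabetic samples (2 of 8 higher, 1 lower). Their part in the collagen results was not tested.

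In cortex, macrophage markers summed to 211 to 374 CPM in control and 521 to 802 CPM in diabetic samples, with 7 of 8 higher. Cd74 alone (means of 157 CPM in control and 448 CPM in diabetic samples) made up most of that sum. Csf1r was not higher (63.5 and 59.2 CPM). Diabetic sample 1 had the lowest macrophage marker sum of the diabetic samples, and it also had the lowest Col1a1, Col3a1, Col1a2 and Col18a1 among them. Other chains went the other way, as that sample had the highest Col4a3 (323 CPM), Col7a1 (6.23 CPM) and Col6a6 (3.19 CPM). Proximal tubule markers summed to 20562 to 30913 CPM in control and 18176 to 24474 CPM (6 of 10 lower), and parietal epithelial markers to 201 to 226 and 254 to 284 CPM (3 of 6 higher). Fibroblast markers, at 52.8 to 122 and 67.9 to 91.1 CPM, had no call among 8 (0 at an unadjusted p under 0.05 by edgeR and 0 by DESeq2). Podocyte markers (1 higher and 3 lower of 12), mesangial (1 and 1 of 7), smooth muscle (2 lower of 8), endothelial (1 higher of 8) and distal nephron markers (1 and 3 of 10) had calls in fewer members. Of all genes tested in cortex, 10.8% were higher and 9.29% lower. No marker on these lists was at 0 in every sample of a group, other than Tbx18 in diabetic cortex. Their part in the cortical collagen results was not tested.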

How the data were processed

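RNA was sequenced from isolated glomeruli and renal cortex of WT mice, with 4 libraries per tissue and condition. Per the labels' protocols, RNA was extracted with Qiagen RNeasy columns and libraries were made with SMARTER chemistry. The authors deposited a table of counts per gene for each tissue, with an FPKM value (fragments scaled to gene length and library size) beside each count. Glomerular FPKM equalled the count over a fixed gene length and the library total in the deposited table. The deposited cortex counts were whole numbers, but 15 counts above 0 had an FPKM of 0, so they may be estimated counts made whole. Genome builds in the submitters' processing notes are GRCm38 and mm10. Which aligner and counter were used, and whether strand was, is not stated in these sources, so reads of overlapping genes may be shared, as at the start of Col4a1 and Col4a2.

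Cortex identifiers were paired with symbols, and 48 glomerular symbols were matched by a synonym. After that, 18796 genes were joined across the tables. Near-identical glomerular libraries, those whose chi-square per gene (genes with a summed count of at least 10) was over 5 times below every other pair's, were summed. Genes were filtered with filterByExpr, scaled by TMM and tested with edgeR 4.0.16 (quasi-likelihood, robust) in R 4.3.3, with Benjamini-Hochberg adjustment over all genes tested and a threshold of 0.05. Glomeruli and cortex were fitted separately for the diabetic effect, and together for the difference between tissues and for the control tissues. CPM used TMM-scaled library sizes, and SE is the log2 fold change over the square root of F. The fits were tested on simulated data. Named were the members with a group mean of at least 1 FPKM or a call, and up to 4 genes per pathway list with the smallest adjusted p. The members and lists were chosen with earlier results of these data known. Gene coordinates are from GENCODE M21 (GRCm38), and sequences from RefSeq. Alternatives were library totals, no filter, DESeq2 1.42.0, limma 3.58.1 on log2(FPKM + 1) and log2(FPKM + 0.1), 8 separate glomerular libraries, a model of all 4 groups, the replicate number as a block, leaving out each sample, and glomeruli without diabetic libraries 1, 3 and 4, which earlier results of these data had shown to hold tubule transcripts. Diabetic library 2 held fewer, but its tubule marker sums were above the controls as well.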

Additional observations from a re-analysis of the deposited data

Results flagged for a closer look

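The diabetic effect differed between glomeruli and cortex, by the edgeR test of that difference, for 20 collagen chain genes, given here as glomerular minus cortical log2 fold change. Among fibrillar chains it was -2.16 for Col1a2, -2.29 for Col3a1, -0.94 for Col5a2 and 1.71 for Col27a1. Among type IV chains it was -1.96 for Col4a1, -2.19 for Col4a2, -1.26 for Col4a3, -1.35 for Col4a4 and -1.38 for Col4a5. It was 2.34 for Col7a1 and 1.66 for Col18a1. Type VI chains differed in opposite directions, by 1.14 for Col6a1 and -0.64 for Col6a3. It was -3.20 for Col8a1, -2.80 for Col12a1, -3.63 for Col14a1, -0.55 for Col16a1 and 1.70 for Col26a1. Col6a6 (adjusted p = 0.0424) and Col28a1 (adjusted p = 0.0448) had a group with no count, so no fold is given.

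For 4 genes in control cortex, 1 sample stood far from the other 3 (Dixon's ratio of its gap to the group's range, against its critical value). They were sample 3 for Col2a1 (0.0585 CPM) and Col11a1 (0.0585 CPM), and sample 4 for Col5a3 (7.09 CPM) and Col17a1 (0.0847 CPM). For Col2a1, Col11a1 and Col17a1 the other controls had no count, so a count of any size in 1 sample passes this rule. Of 60 groups checked, about 1 in 20 would pass by chance, a share that does not hold for groups with counts in 1 sample only.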

How the results depend on the processing

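No fold change of a named collagen gene changed sign under these alternatives where it was called or was at least as large as its SE. Smaller fold changes and genes with a group at 0 were not checked, and between control tissues only called genes were. In glomeruli Col16a1, for example, averaged 41.2 CPM in control and 40.4 CPM in diabetic samples, but 6.06 and 6.76 FPKM. The median over all genes, near 0, changed sign under some of the alternatives. For example, it went from -0.0036 to 0.04 in cortex with library totals, and from 0.04 to -0.06 for the difference between tissues without diabetic glomerular libraries 1, 3 and 4. Of the alternative values for called genes named in the report, 239 of 255 stayed past the threshold in glomeruli, 187 of 210 in cortex, 330 of 360 for the difference between tissues and 599 of 608 between control tissues. With diabetic glomerular libraries 1, 3 and 4 left out, glomeruli had 1356 genes higher and 937 lower in all, with 2 collagen genes higher. The difference between tissues then had 1756 genes higher, 3 of them collagen genes. Genes lower in glomeruli numbered 2767 in all, against 1662 when scaled by library totals, 1665 on the log2(FPKM + 1) scale and 1692 on the log2(FPKM + 0.1) scale, where 72.5%, 70.8% and 71.5% of calls were higher in place of 51.6%. In cortex the FPKM scales gave 65.3% and 65.4% of calls higher in place of 53.7%, and library totals gave 69.0% in place of 53.6% for the difference between tissues. The model of all 4 groups left 1638 of 16305 genes higher and 1053 lower in cortex, with 7 collagen genes higher. DESeq2 called 6 collagen genes lower there, where it called 2304 of all 19228 genes lower. Leaving out 1 sample at a time gave 1728 to 2516 genes lower in glomeruli (1728 without diabetic sample 1+4 and 1778 without sample 2) and 1090 to 2241 in cortex (1108, 1090 and 1110 without diabetic sample 2, 3 or 4), and 3 to 5 collagen genes lower in cortex, 5 without diabetic sample 1. The replicate number as a block left 1389 of 19228 genes higher and 986 lower in cortex, with 9 collagen genes higher and 3 lower. In glomeruli (8 separate libraries) it left 5 collagen genes higher and 15 lower, where 3596 of all 15182 genes were higher and 3396 lower. Deviations of same-numbered libraries correlated from -0.10 to 0.11, so the numbers show no pairing. The causes of these shifts were not tested. With 3 glomerular samples a group, and several members under 1 CPM, depth and number limit what could be called.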
